A study of Mus musculus with 32 samples.

Results

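The excision repair maps of mouse spleen were compared with those of kidney, liver and lung after cisplatin, a platinum drug that joins neighbouring guanines of DNA. The comparison held the 2 spleen XR-seq libraries of the 8 in the series and set them against the 6 libraries of the other organs. Its readout was the number of excision reads on the transcribed strand (TS) of each gene, scaled to the library's total of TS and non-transcribed strand (NTS) reads on genes and written as CPM (counts in 1000000 such reads). Higher or lower repair thus means a larger or smaller share of a library's excision reads. The amount of repair in an organ was not measured. The libraries came from wild-type female C57BL/6J mice aged 6 to 7 months. Every group of the comparison, kidney, liver and lung included, had received cisplatin intraperitoneally at 10 mg per kg. RNA-seq libraries of control mice, given saline instead, entered only an alternative run at the end. The protocols place the harvest 4 h after the injection, whereas the sample tags read 2 h, and the sources used here do not settle which holds. Each organ had 2 biological replicates per the study's methods, with no statement on whether organs with the same number shared an animal. Whole organs were homogenised, so in these bulk samples fewer cells of a type and less signal per cell cannot be told apart. Damage-seq and RNA-seq libraries of the same organs and treatment, 2 per organ, served as readouts outside the comparison itself. A note in the series states that control and cisplatin labels were exchanged after deposit for lung and spleen RNA-seq, and the corrected labels apply here.

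Nucleotide excision repair removes platinum adducts by cutting out a short single-stranded oligomer around the lesion. In global repair, XPC finds lesions anywhere in the genome, while in transcription-coupled repair an RNA polymerase II stalled at a lesion of the TS recruits CSB and brings the same nuclease machinery to that strand. The excised oligomer stays bound to TFIIH for a while, and XR-seq captures it with antibodies against TFIIH and then against the adduct, so TS reads carry both kinds of repair and NTS reads carry global repair alone. Damage-seq maps the adducts that remain. The spleen is a lymphoid organ whose white pulp holds B and T lymphocytes, whose red pulp macrophages clear aged red cells and recycle their iron, and which in the mouse also makes blood cells. Kidney, liver and lung, in contrast, are built around epithelial cells.

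Spleen differed from the other organs at 3495 (17.7%) of 19736 genes tested for TS repair. Against the mean of kidney, liver and lung, 1718 genes (8.7% of those tested) were higher and 1777 (9.0%) were lower, at an adjusted p under 0.05 in edgeR's quasi-likelihood test and a change of at least 2-fold. Against each of the 3 organs separately, 695 genes (3.52%) were higher and 617 (3.13%) were lower. Of the 695 genes, 650 were protein coding and 3 were immunoglobulin constant region genes, and 577 of the 617 were protein coding. A fit with spleen against all 6 other libraries as 1 group, in which the differences among the other organs count as spread, called 352 higher and 220 lower. The spleen libraries held 10658675 and 34649883 reads on genes and the others 18406613 to 59779770, so spleen replicate 1 was the shallowest. The share of reads on the TS was 88.6% and 88.5% in spleen and 83.8% to 90.0% elsewhere, and the difference of 2.00 percentage points gave an exact two-sided permutation p of 0.429, where 0.0357 is the smallest that 2 against 6 libraries allow.

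The genes were read by function through 31 lists of cell type and pathway genes. Lists of lymphocyte, antigen receptor and other blood cell genes lay on the higher side, and lists of epithelial, hepatocyte, kidney tubule and YAP and TEAD genes lay on the lower side. The median log2 fold change over all genes tested was 0.05, which is the value to hold beside every list median. Lists of excision repair, ribosomal protein and housekeeping genes had no called member in either direction.

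**Figure D1:**
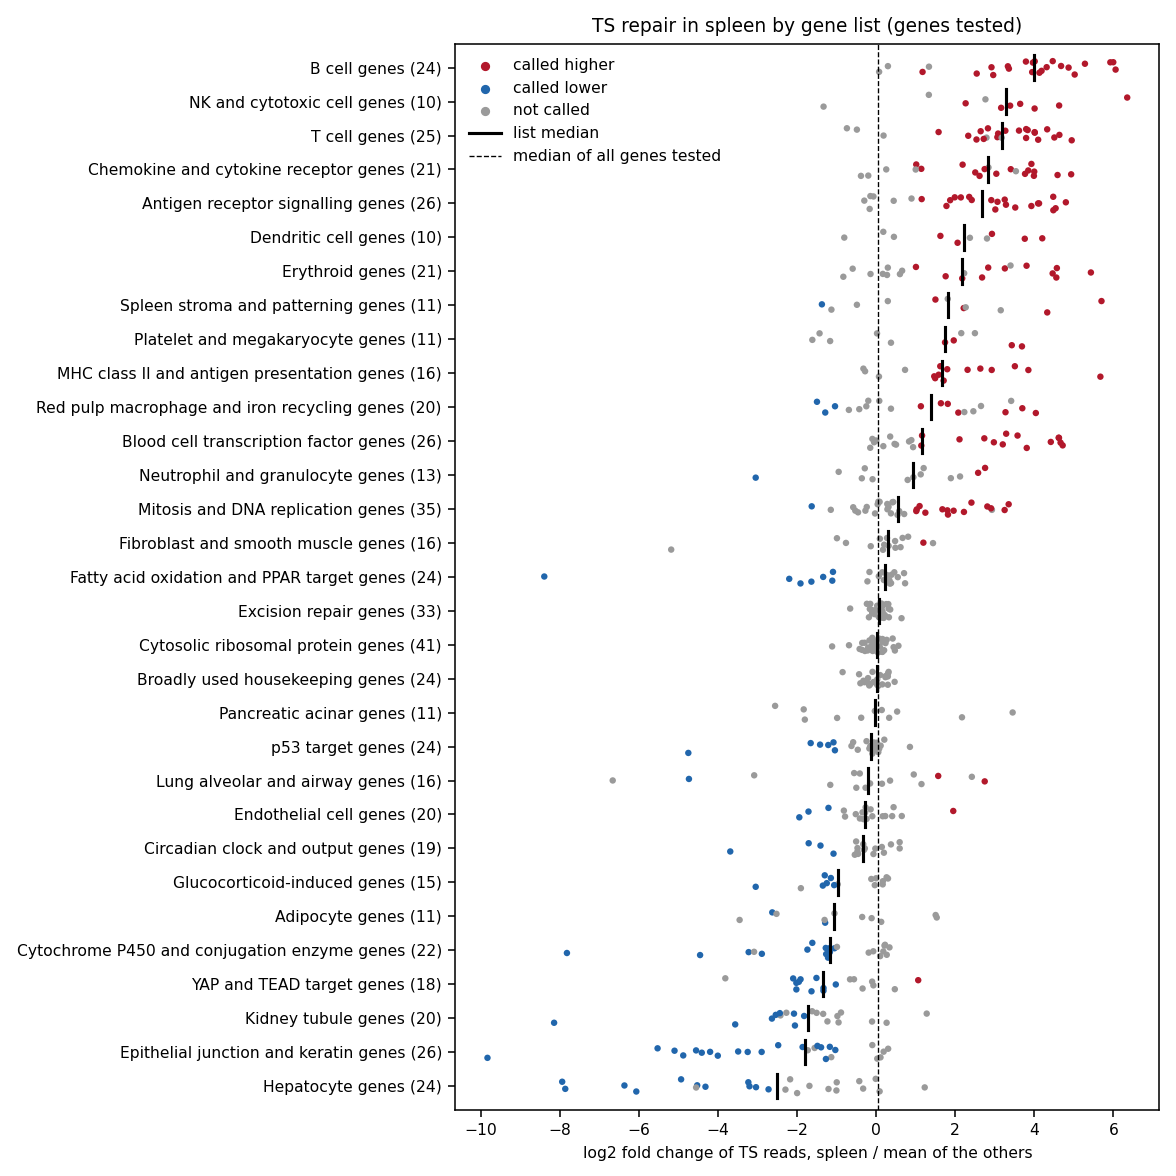
Log2 fold change of TS excision reads between spleen and the mean of kidney, liver and lung (horizontal axis) for each tested member of 31 gene lists (rows, number tested in brackets). Red points were called higher, blue points lower and grey points neither, black bars are list medians, and the dashed line is the median of 0.05 over all 19736 genes; the B cell list at 3.99 is the highest and the hepatocyte list at -2.51 the lowest.

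Genes of B cells, the most abundant lymphocytes of the spleen, held a far larger share of excision reads in spleen than elsewhere. Of 24 B cell genes, 21 were higher and 0 lower against the mean of the other organs, 18 were higher against each organ, and the list median was 3.99 on the log2 scale. Their summed TS level was 956 and 1048 CPM in spleen and 214 to 331 CPM in the other 6 libraries. Pax5 (chr4:44524757-44710487, mm10), the transcription factor that fixes B cell identity, had 147 and 181 CPM in the spleen libraries and 2.34 to 9.74 CPM (median 4.29) in the other 6. Both spleen libraries lay far above every other library (log2 fold change 5.02 ± 0.29 SE, adjusted p = 1.06e-07). Bank1, an adaptor of the B cell receptor, had 106 and 114 CPM in the spleen libraries and 0.217 to 7.63 CPM (median 2.57) in the other 6 (log2 fold change 5.28 ± 0.32 SE, adjusted p = 1.37e-07). Pou2af1, the B cell coactivator of octamer factors, was at 19.4 and 22.6 CPM in the spleen libraries and 0 to 0.903 CPM (median 0.443) in the other 6 (log2 fold change 5.92 ± 0.47 SE, adjusted p = 1.24e-06). From here on, values are given for the 2 spleen libraries against the lowest, highest and median of the other 6.

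The surface proteins by which B cells are recognised showed the same order of libraries. Ms4a1, which encodes CD20, had 6.38 and 6.9 CPM in the spleen libraries and 0 to 0.143 CPM (median 0.124) in the other 6 (log2 fold change 5.99 ± 0.77 SE, adjusted p = 7.05e-05). It was close to 0 in every library of the other organs. Siglecg, an inhibitory lectin of B cells, had 8.72 and 12.1 CPM against 0 to 0.784 CPM with a median of 0.0547 CPM (log2 fold change 7.12 ± 1.04 SE, adjusted p = 2.90e-04). Blk, a kinase of the Src family used by B cells, was at 35.8 and 46.8 CPM against 0.664 to 2.12 CPM with a median of 1.46 CPM (log2 fold change 4.87 ± 0.34 SE, adjusted p = 3.77e-07). Cr2, the complement receptor of B and follicular dendritic cells, was at 8.44 and 9.96 CPM against 0.266 to 1.47 CPM with a median of 0.481 CPM (log2 fold change 4.01 ± 0.49 SE, adjusted p = 4.87e-05). Cd22, Fcrl1, Cd72 and Cd37 had log2 fold changes of 3.33 (adjusted p = 1.22e-05), 4.31 (adjusted p = 1.18e-05), 4.18 (adjusted p = 3.64e-05) and 3.36 (adjusted p = 3.25e-06), all called against each organ.

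Several B cell genes were also repaired in another organ. Ebf1, an early B cell factor that adipose and stromal cells also use, had 259.5 and 266 CPM against 6.41 to 113 CPM with a median of 92.3 CPM, and although it was called (log2 fold change 2.54 ± 0.15 SE, adjusted p = 9.84e-08), the liver held 6.41 and 11.9 CPM while kidney held 89.4 and 95.2 CPM and lung 113 and 106 CPM. Blnk, the linker of the B cell receptor, overlapped between groups, with 65.3 and 69.1 CPM against 5.26 to 78.4 CPM with a median of 60.9 CPM, and of the other organs only lung was low, at 5.79 and 5.26 CPM (log2 fold change 1.17 ± 0.16 SE, adjusted p = 1.06e-04). Ralgps2 was at 129 and 147 CPM against 68.5 to 238 CPM with a median of 87.9 CPM and did not reach the 2-fold limit (log2 fold change 0.3 ± 0.10 SE, adjusted p = 0.0372). Cd79a, a signalling chain of the B cell receptor and a short gene, was at 3.1 and 4.44 CPM against 0.523 to 6.16 CPM with a median of 0.878 CPM. Both kidney libraries were above both spleen libraries there, and Cd79a was not called (log2 fold change 1.34 ± 0.49 SE, adjusted p = 0.0594), while its transcripts were called higher (log2 fold change 7.1, adjusted p = 3.16e-06).

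Repair followed the same division for T cells. Of 25 T cell genes, 20 were higher and 0 lower, 12 against each organ, with a list median of 3.17, and their summed TS level was 766 and 744 CPM in spleen against 202 to 395 CPM. Cd2, an adhesion receptor of T and natural killer (NK) cells, had 27 and 24.7 CPM against 0 to 6.97 CPM with a median of 0.661 CPM (log2 fold change 4.51 ± 0.47 SE, adjusted p = 1.18e-05), with lung at 6.94 and 6.97 CPM as the highest other organ. Cd6, a scavenger receptor family protein of T cells, had 38.6 and 29.3 CPM against 0 to 4.65 CPM with a median of 1.68 CPM (log2 fold change 4.32 ± 0.49 SE, adjusted p = 2.68e-05). Skap1, an adaptor that links the T cell receptor to integrins, had 163 and 152 CPM against 5.75 to 34.3 CPM with a median of 18.7 CPM (log2 fold change 3.27 ± 0.21 SE, adjusted p = 2.36e-07). Themis, a regulator of thymocyte selection, was at 34.8 and 34.9 CPM against 0.752 to 6.54 CPM with a median of 2.53 CPM. Lef1, a Wnt pathway factor of young T cells, was at 87.3 and 89.5 CPM against 2.41 to 54.5 CPM with a median of 7.02 CPM. Lung was nearest to spleen in both. Il7r and Cd5 had log2 fold changes of 4.94 (adjusted p = 1.96e-04) and 3.83 (adjusted p = 9.48e-07).

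Cd3e, a chain of the T cell receptor complex, had few reads, with 4.22 and 4.59 CPM against 0.402 to 1.41 CPM with a median of 0.696 CPM, and was called against the mean (log2 fold change 2.54 ± 0.65 SE, adjusted p = 0.0104) but not against each organ. Cd4 was similar, with 11.2 and 13.7 CPM against 0 to 5.39 CPM with a median of 2.19 CPM (log2 fold change 2.64 ± 0.69 SE, adjusted p = 0.0119). Bcl11b, a T cell factor, did not separate spleen from kidney, with 75 and 70.6 CPM against 2.24 to 71.2 CPM with a median of 8.15 CPM and kidney at 71.2 and 46.2 CPM. Tcf7, another Wnt pathway factor of T cells, had 58.5 and 56.8 CPM against 29.4 to 178 CPM with a median of 155 CPM, a difference under the 2-fold limit (log2 fold change -0.74 ± 0.12 SE, adjusted p = 3.87e-04). Lat, the membrane scaffold of T cell receptor signalling, had 16.4 and 12.8 CPM against 14.2 to 31.7 CPM with a median of 19.7 CPM (log2 fold change -0.49 ± 0.22 SE, adjusted p = 0.133). Transcripts of both were higher in spleen, with log2 fold change 4.59, adjusted p = 1.37e-06 for Tcf7 and log2 fold change 4.96, adjusted p = 1.20e-06 for Lat.

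Among NK and cytotoxic cell genes, 7 of 10 tested members were higher, 3 of them against each organ, and the median was 3.27. Tbx21, which encodes the factor T-bet, had 19.98 and 18.7 CPM against 1.19 to 3.23 CPM with a median of 1.76 CPM (log2 fold change 3.39 ± 0.32 SE, adjusted p = 5.73e-06). Il2rb, the beta chain of the receptors for interleukin 2 and interleukin 15, had 22.8 and 18.6 CPM against 0.163 to 4.2 CPM with a median of 1.55 CPM (log2 fold change 3.64 ± 0.43 SE, adjusted p = 3.76e-05). Both separated spleen from every other library. Gzma, Gzmb, Klrd1 and Ncr1 did not pass the filter on low counts and were not tested.

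Genes that transmit the antigen receptor signal were repaired more in spleen. Of 26 members 20 were higher and 0 lower, 17 against each organ, with a median of 2.66, and the list summed to 4188 and 4218 CPM in spleen against 988 to 1804 CPM. Dock2, which drives lymphocyte migration by activating Rac, had 640.1 and 591 CPM against 9.78 to 52 CPM with a median of 19.2 CPM (log2 fold change 4.8 ± 0.12 SE, adjusted p = 5.30e-10). Prkcb, the protein kinase C of B cell receptor signalling, had 573 and 569 CPM against 12.3 to 39.8 CPM with a median of 29 CPM (log2 fold change 4.48 ± 0.13 SE, adjusted p = 7.74e-10). In both genes the spleen libraries were close to each other and far above every other library.

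Ptprc, the CD45 phosphatase of all leukocytes, had 69.4 and 69.1 CPM against 1.63 to 10.6 CPM with a median of 3.18 CPM (log2 fold change 4.09 ± 0.22 SE, adjusted p = 5.24e-08). Vav1, a guanine nucleotide exchange factor of blood cells, had 96.8 and 87.7 CPM against 2.47 to 14 CPM with a median of 6.2 CPM (log2 fold change 3.92 ± 0.18 SE, adjusted p = 1.43e-08). Grap2, an adaptor of T cells, was at 64.8 and 59.4 CPM against 1.16 to 10.02 CPM with a median of 1.8 CPM. Lyn and Malt1 were not called. Lyn, a Src family kinase of many cell types, had 129 and 139 CPM against 103 to 223 CPM with a median of 188 CPM (log2 fold change -0.3 ± 0.08 SE, adjusted p = 0.0184). Malt1, a protease of NF-kappa-B signalling, had 59.3 and 65.9 CPM against 57.2 to 78.2 CPM with a median of 71.3 CPM (log2 fold change -0.15 ± 0.11 SE, adjusted p = 0.394), although transcripts of both were higher in spleen (log2 fold change 3.29, adjusted p = 1.30e-05 and log2 fold change 3.23, adjusted p = 2.01e-05).

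Of 26 blood cell transcription factor genes, 14 were higher and 0 lower, 11 against each organ, with a median of 1.15. Ikzf3, the Aiolos factor of lymphocytes, had 97.5 and 94.9 CPM against 1.97 to 6.39 CPM with a median of 3.76 CPM (log2 fold change 4.72 ± 0.18 SE, adjusted p = 5.76e-09). Ikzf1, which encodes Ikaros, had 146 and 158 CPM against 5.44 to 21.7 CPM with a median of 11.5 CPM (log2 fold change 3.81 ± 0.26 SE, adjusted p = 3.21e-07). Runx3, the Runt factor of cytotoxic T cells, had 105 and 129 CPM against 0.706 to 7.99 CPM with a median of 5.48 CPM (log2 fold change 4.62 ± 0.41 SE, adjusted p = 3.48e-06). Runx1, the Runt factor of blood stem cells, had 582 and 635 CPM against 35.8 to 114 CPM with a median of 52.7 CPM (log2 fold change 3.29 ± 0.09 SE, adjusted p = 7.74e-10). Stat4, Bcl11a and Pou2f2, factors of interleukin 12 signalling, of B cell development and of octamer binding, had log2 fold changes of 4.66 (adjusted p = 1.38e-08), 4.62 (adjusted p = 1.80e-08) and 4.42 (adjusted p = 6.35e-09). Spi1, which encodes PU.1, the master factor of myeloid and B cells, had 46.2 and 48.2 CPM against 8.74 to 14.2 CPM with a median of 10.6 CPM (log2 fold change 2.11 ± 0.2 SE, adjusted p = 6.30e-06). Bach2, a repressor that restrains lymphocyte effector fates, had 565 and 513 CPM against 180.4 to 446 CPM with a median of 327 CPM, a difference under the 2-fold limit (log2 fold change 0.89 ± 0.11 SE, adjusted p = 4.70e-05).

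A block of neighbouring receptor genes on chromosome 1 was repaired more in spleen. In it 8 genes in a row, with less than 200000 bp between neighbours, were each higher in spleen than in each other organ between chr1:171559193-171953170 (mm10), with log2 fold changes of 3.16 to 6.02. They were Cd244a, Ly9, Slamf7, A630035G10Rik, Cd48, Slamf1, Cd84 and Slamf6, and all but A630035G10Rik encode receptors of the SLAM family, which bind one another between leukocytes. Slamf1 had 45.6 and 32.4 CPM against 0 to 1.48 CPM with a median of 0.542 CPM (log2 fold change 6.02 ± 0.42 SE, adjusted p = 4.27e-07). Slamf6 had 44.6 and 46.5 CPM against 0 to 4.92 CPM with a median of 1.99 CPM (log2 fold change 5.26 ± 0.32 SE, adjusted p = 1.47e-07). Both kidney libraries were near 0 at both genes, and the highest other library was a lung library. Cd48 was at 18.7 and 17.3 CPM against 0 to 2.33 CPM with a median of 0.541 CPM. Ly9 was at 23.1 and 23.8 CPM against 0.0543 to 2.31 CPM with a median of 1.11 CPM. Slamf7 and Cd84 were at 21.2 and 22.1 and at 36.2 and 30.6 CPM in the spleen libraries, and at most at 1.36 and 7.41 CPM elsewhere. Ly9 and Cd244a overlap on opposite strands, so the TS of one is the NTS of the other and their reads are not independent.

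Several other genes with high log2 fold changes are also expressed by lymphocytes. Zfp831, a zinc finger gene, had 126 and 128 CPM against 1.84 to 5.08 CPM with a median of 2.94 CPM (log2 fold change 5.42 ± 0.21 SE, adjusted p = 5.76e-09). Jakmip1, a microtubule-linked protein of neurons and lymphocytes, had 236 and 229 CPM against 1.74 to 18.9 CPM with a median of 4.89 CPM (log2 fold change 5.32 ± 0.26 SE, adjusted p = 2.49e-08). Sh2d2a, an adaptor of T cells, Gpr18, a receptor of lymphocytes, and Cd226, an activating receptor of NK and T cells, had log2 fold changes of 5.58 (adjusted p = 1.43e-06), 6.03 (adjusted p = 4.78e-05) and 5.24 (adjusted p = 3.72e-04). Per 1000 GG dinucleotides of the TS, the sites at which cisplatin mostly reacts, the highest spleen repair among genes higher than each organ was in Coq8a (68.8 CPM), Ltb (64.3), Kcna3, Itpr3, Carmil2 and Tmc8 (60.3). Itpr3, a calcium channel of the endoplasmic reticulum, had 354 and 357 CPM against 63.7 to 279 CPM with a median of 119 CPM (log2 fold change 1.48 ± 0.08 SE, adjusted p = 3.50e-08). Kcna3, the potassium channel Kv1.3 of lymphocytes, had 12.1 and 12.7 CPM against 0.333 to 4.67 CPM with a median of 2.1 CPM (log2 fold change 3.05 ± 0.44 SE, adjusted p = 1.93e-04). Ltb, which encodes lymphotoxin beta, had 13 and 10.4 CPM against 0.266 to 1.9 CPM with a median of 0.815 CPM (log2 fold change 3.76 ± 0.52 SE, adjusted p = 1.25e-04).

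**Figure D2:**
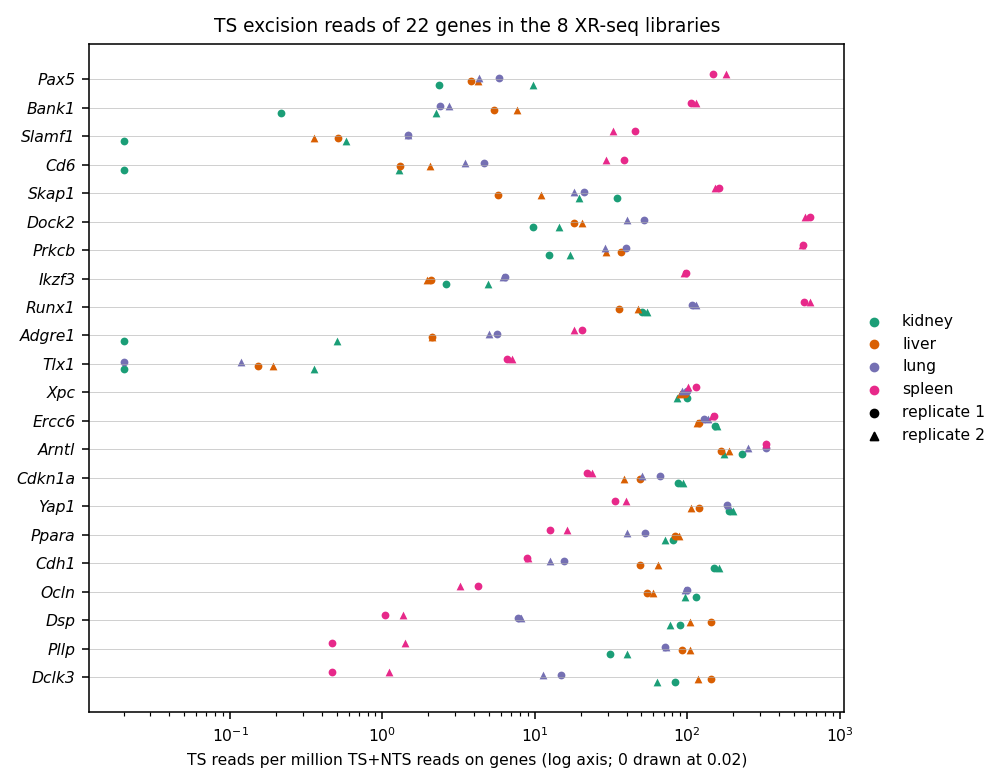
TS excision reads of 22 genes (rows) in the 8 XR-seq libraries, as CPM on a log axis, with values of 0 drawn at 0.02. Colours mark the organ and shapes the replicate; spleen lies to the right of the others from Pax5 down to Tlx1 and, by little, at Xpc, among them at Ercc6 and Arntl, and to the left from Cdkn1a down to Dclk3.

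Promoters of the genes higher and lower in spleen were searched on both strands for the letters of 7 motifs. A RefSeq promoter window, 250 bases before to 50 after the start in GRCm38.p6, was matched for 504 of the 695 higher genes, 464 of the 617 lower genes and 14522 of all genes tested. The PU.1 letters GAGGAAGT stood in the windows of 9.52% of the higher genes, 2.37% of the lower genes and 3.48% of all genes. The GATA letters AGATAAG stood in 3.57%, 1.94% and 2.83%, in that order. The palindromic site of EBF1, a B cell factor, went the other way, with 0.595%, 1.72% and 1.34%. The FOXA letters TGTTTAC stood in 2.18%, 3.66% and 3.44%, and the AP-1 letters TGACTCA in 5.36%, 6.47% and 5.07%. The full palindromic HNF1 site stood in 1 window of all genes and in none of the higher or lower genes, and the TEAD letters are given with the YAP genes below. These shares are a description of letters in a fixed window, with no test, and a match is not evidence of binding. The 250 bases before the start are shown for 5 higher genes named above or below, picked after their values were seen, with the PU.1 letters or their reverse complement in capitals: Fcrl1 (chr3:87376137-87376386, plus strand), Cd72 (chr4:43454627-43454876, minus strand), Cd37 (chr7:45238840-45239089, minus strand), Cd5 (chr19:10738975-10739224, minus strand) and Vav1 (chr17:57278850-57279099, plus strand).
Fcrl1: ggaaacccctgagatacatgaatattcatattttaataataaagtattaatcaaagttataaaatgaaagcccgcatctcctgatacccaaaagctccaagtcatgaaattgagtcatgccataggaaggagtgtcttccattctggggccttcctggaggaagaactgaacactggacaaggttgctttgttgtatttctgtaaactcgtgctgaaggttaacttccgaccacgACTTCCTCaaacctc
Cd72: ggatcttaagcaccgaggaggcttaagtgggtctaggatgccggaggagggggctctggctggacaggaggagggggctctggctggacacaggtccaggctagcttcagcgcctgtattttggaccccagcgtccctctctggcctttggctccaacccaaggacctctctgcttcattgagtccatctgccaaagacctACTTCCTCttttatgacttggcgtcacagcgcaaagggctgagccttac
Cd37: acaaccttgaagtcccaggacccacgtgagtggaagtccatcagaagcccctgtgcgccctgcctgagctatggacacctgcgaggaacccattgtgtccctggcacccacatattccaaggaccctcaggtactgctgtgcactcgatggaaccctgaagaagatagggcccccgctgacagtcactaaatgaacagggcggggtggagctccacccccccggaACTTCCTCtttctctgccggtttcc
Cd5: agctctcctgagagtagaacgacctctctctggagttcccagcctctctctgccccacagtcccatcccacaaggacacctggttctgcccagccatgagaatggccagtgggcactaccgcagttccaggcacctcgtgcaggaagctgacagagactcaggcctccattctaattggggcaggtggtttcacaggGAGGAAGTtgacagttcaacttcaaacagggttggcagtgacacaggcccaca
Vav1: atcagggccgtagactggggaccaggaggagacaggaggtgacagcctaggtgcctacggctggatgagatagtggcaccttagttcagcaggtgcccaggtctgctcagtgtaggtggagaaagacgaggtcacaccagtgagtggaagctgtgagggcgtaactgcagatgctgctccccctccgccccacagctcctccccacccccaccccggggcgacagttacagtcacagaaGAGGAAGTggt

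Reading towards the start, the match began 15 bases before it in Fcrl1, 49 in Cd72, 25 in Cd37, 53 in Cd5 and 11 in Vav1, as GAGGAAGT in Cd5 and Vav1 and as its reverse complement in the other 3. The 5 genes had spleen TS levels of 31.8 and 25.7, 15.2 and 15.1, 19.6 and 15.9, 23.9 and 25.4 and 96.8 and 87.7 CPM, in that order, and other libraries reached at most 3.78, 1.58, 3.71, 3.97 and 14 CPM.

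Antigen presentation genes were higher in spleen. Of 16 MHC class II and antigen presentation genes, 12 were higher and 0 lower, but 4 against each organ, with a median of 1.66. H2-Oa, a modulator of class II peptide loading in B cells, had 4.97 and 10.4 CPM against 0 to 0.485 CPM with a median of 0.178 CPM (log2 fold change 5.67 ± 0.76 SE, adjusted p = 1.04e-04). Cd86, a ligand that costimulates T cells, had 60.9 and 63.5 CPM against 2.64 to 5.99 CPM with a median of 4.43 CPM (log2 fold change 3.85 ± 0.2 SE, adjusted p = 3.81e-08). Cd83 had a log2 fold change of 2.63 (adjusted p = 3.76e-06). Ciita, the master regulator of class II genes, had 60.5 and 62.7 CPM against 8.17 to 60.7 CPM with a median of 16.7 CPM and was not called against lung, whose libraries held 54.1 and 60.7 CPM. H2-Aa, a class II chain, was likewise at 5.47 and 6.76 CPM in lung and 5.07 and 5.08 CPM in spleen. B2m, the class I light chain that all cells use, had 8.07 and 8.97 CPM against 6.16 to 15 CPM with a median of 13.5 CPM (log2 fold change -0.32 ± 0.24 SE, adjusted p = 0.378).

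Of 21 chemokine and cytokine receptor genes tested, 15 were higher and 0 lower, 7 against each organ, with a median of 2.84. Ccr6, Il21r and Il2ra, receptors for CCL20, interleukin 21 and interleukin 2, had log2 fold changes of 4.93 (adjusted p = 4.70e-05), 4.59 (adjusted p = 9.38e-09) and 3.99 (adjusted p = 2.03e-04), and Il21r had 47.5 and 66.9 CPM against 1.5 to 4.82 CPM with a median of 1.88 CPM. Cxcr5, which guides B cells into follicles, had 18.3 and 24.4 CPM against 0.602 to 14.8 CPM with a median of 3.42 CPM and was called against the mean (log2 fold change 2.51 ± 0.38 SE, adjusted p = 2.52e-04) but not against each organ, with liver nearest at 8.67 and 14.8 CPM. Cxcr5 overlaps Bcl9l on the opposite strand, and reads in the overlap cannot be assigned to 1 of the genes. Among dendritic cell genes 5 of 10 were higher, 3 against each organ, with a median of 2.22, while the list's sum of 242 and 243 CPM in spleen lay within the 163 to 250 CPM of the other libraries. Ccr7, their homing receptor, was at 24.6 and 30.7 CPM against 0.531 to 2.98 CPM with a median of 1.7 CPM (log2 fold change 4.2 ± 0.29 SE, adjusted p = 4.36e-07). Flt3, the receptor for the growth factor of dendritic cell precursors, was at 24.3 and 14.3 CPM against 0 to 2.69 CPM with a median of 1.44 CPM (log2 fold change 3.76 ± 0.69 SE, adjusted p = 0.00111).

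Red cell genes were in part higher in spleen. Of 21 erythroid genes tested, 11 were higher and 0 lower against the mean, while 1 passed against each organ, and the median was 2.18. The list summed to 338 and 393 CPM in spleen, 337 and 351 CPM in lung and 240.4 to 255.5 CPM in kidney and liver, so that spleen and lung overlapped. The gene that passed was Ank1, the ankyrin of the red cell membrane, with 58.8 and 67.3 CPM against 13.5 to 25.8 CPM with a median of 18.9 CPM (log2 fold change 1.76 ± 0.2 SE, adjusted p = 2.59e-05). Gata1, the master factor of red cells, had 1.78 and 2.45 CPM against 0 to 0.95 CPM with a median of 0.153 CPM (log2 fold change 3.8 ± 1.23 SE, adjusted p = 0.0366). Klf1, a factor of globin genes, was not called, with 2.44 and 2.86 CPM against 0.652 to 21.5 CPM with a median of 5.82 CPM and liver at 21.5 and 20.3 CPM. The globin genes Hbb-bt, Hbb-bs, Hba-a1 and Hba-a2 had too few TS reads to be tested.

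Platelet and megakaryocyte genes were in part higher in spleen. Of 11 tested members 4 were higher and 0 lower, 1 against each organ, with a median of 1.74. The whole list, untested member included, summed to 454 and 452 CPM in spleen, 563 and 578 CPM in lung and 128 to 141 CPM in kidney and liver. Itgb3, the platelet integrin, was the member higher than each organ, with 80.4 and 85.4 CPM against 12.9 to 32.9 CPM with a median of 21.2 CPM (log2 fold change 1.96 ± 0.19 SE, adjusted p = 7.15e-06). Gfi1b, a factor of red cells and megakaryocytes, had 5.35 and 8.4 CPM against 0 to 0.824 CPM with a median of 0.622 CPM (log2 fold change 3.69 ± 0.78 SE, adjusted p = 0.00322).

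The red pulp macrophage list went both ways. Of 20 members 7 were higher and 3 lower, 2 in each direction against each organ, with a median of 1.38. The list summed to 237 and 231 CPM in spleen, below every other library, at 261.5 to 527 CPM. Adgre1, which encodes F4/80, had 20.3 and 18 CPM against 0 to 5.62 CPM with a median of 2.12 CPM (log2 fold change 3.7 ± 0.45 SE, adjusted p = 4.82e-05). Siglec1, a macrophage lectin, had 12 and 9.81 CPM against 1.83 to 3.41 CPM with a median of 2.66 CPM (log2 fold change 2.08 ± 0.36 SE, adjusted p = 7.41e-04). Spic, the factor that red pulp macrophages need, was near 0 outside spleen, with 2.53 and 3.81 CPM against 0 to 0.594 CPM with a median of 0.225 CPM (log2 fold change 4.04 ± 1.03 SE, adjusted p = 0.0101). Of its genes for haem and iron handling, Hmox1 and Slc40a1 were lower. Hmox1, haem oxygenase, had 9.29 and 9.7 CPM against 17.7 to 29.7 CPM with a median of 22.7 CPM (log2 fold change -1.29 ± 0.23 SE, adjusted p = 0.00104). Slc40a1, the iron exporter ferroportin, had 11.1 and 9.38 CPM against 11.9 to 29.3 CPM with a median of 24.6 CPM (log2 fold change -1.04 ± 0.2 SE, adjusted p = 0.00184). Transcripts of both were higher in spleen, with log2 fold change 1.93, adjusted p = 0.00193 for Hmox1 and log2 fold change 2.02, adjusted p = 0.00202 for Slc40a1. Mertk, a receptor for dying cells, was also lower in repair, with 84 and 83.2 CPM against 147 to 344 CPM with a median of 245 CPM (log2 fold change -1.5 ± 0.09 SE, adjusted p = 1.37e-07), and its transcripts were not called (log2 fold change 0.43, adjusted p = 0.312).

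Neutrophil genes were mostly higher in transcripts, while few were called in repair. Of 18 listed genes 13 had enough TS reads to be tested. Of the 13, 2 were higher and 1 lower in TS repair, beside 8.7% and 9.0% of all genes. Their median was 0.94, and 8 of the 13 changes were above 0. The whole list summed to 37.4 and 37.0 CPM in spleen, within the 8.86 to 39.5 CPM of the others. In RNA-seq 12 of the 13 were higher with a median of 4.63, beside a median of 0.06 over all genes tested there. The part of low read counts in this contrast was not tested. The 2 genes higher in repair were Itgam and Csf3r. Itgam, an integrin of myeloid cells, had 16.3 and 15.5 CPM against 1.22 to 3.97 CPM with a median of 2.8 CPM. Csf3r, the receptor for their growth factor, had 5.72 and 11.3 CPM against 0.609 to 1.99 CPM with a median of 1.58 CPM. Mpo, myeloperoxidase of granule precursors, had 1.13 and 0.404 CPM against 0 to 0.43 CPM with a median of 0.272 CPM in XR-seq and was not called (log2 fold change 1.89 ± 1.46 SE, adjusted p = 0.397). Its transcripts stood at 36.5 and 48.2 CPM against 0 to 0.074 CPM with a median of 0 CPM. Lcn2, which injured liver and kidney also make, was the lower member, with 0.281 and 0.144 CPM against 0 to 13.5 CPM with a median of 0.898 CPM (log2 fold change -3.05 ± 1.03 SE, adjusted p = 0.043).

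Of 11 spleen stroma and patterning genes, 4 were higher and 1 lower, with a median of 1.81, while the list summed to 316 and 331 CPM in spleen, below the 340 to 459 CPM of the others. Tlx1, the homeobox factor without which no spleen forms, was the member higher than each organ, with 6.57 and 7.07 CPM against 0 to 0.358 CPM with a median of 0.135 CPM (log2 fold change 5.7 ± 0.87 SE, adjusted p = 2.94e-04). Nkx2-5, a homeobox factor of heart and spleen, had 2.06 and 5.02 CPM against 0 to 0.573 CPM with a median of 0.189 CPM (log2 fold change 4.33 ± 1.07 SE, adjusted p = 0.0087). Wt1, a factor of the mesothelium and of kidney podocytes, had 7.22 and 10.7 CPM against 0.535 to 6.05 CPM with a median of 1.49 CPM, with kidney nearest at 5.98 and 6.05 CPM. Stab2, a scavenger receptor of sinusoidal endothelium, was at 54.8 and 51.8 CPM against 4.65 to 77.9 CPM with a median of 17.4 CPM, with liver above spleen at 72.4 and 77.9 CPM. Ltbr, the lymphotoxin beta receptor of stromal and epithelial cells, was lower than each organ, with 15.1 and 17.4 CPM against 33.1 to 52 CPM with a median of 42 CPM (log2 fold change -1.37 ± 0.17 SE, adjusted p = 5.10e-05), and so were its transcripts (log2 fold change -2.24, adjusted p = 4.87e-05).

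Epithelial genes were lower in spleen. Of 26 epithelial junction and keratin genes, 18 were lower and 0 higher, 13 against each organ, with a median of -1.80, and the list summed to 408 and 418 CPM in spleen against 884 to 1738 CPM. Dsp, desmoplakin of cell junctions, had 1.03 and 1.36 CPM against 7.7 to 142 CPM with a median of 83.1 CPM (log2 fold change -5.1 ± 0.23 SE, adjusted p = 1.47e-08). Ocln, occludin of tight junctions, had 4.22 and 3.2 CPM against 54.3 to 115 CPM with a median of 96.1 CPM (log2 fold change -4.55 ± 0.18 SE, adjusted p = 5.76e-09). Cdh1, E-cadherin, had 8.91 and 8.97 CPM against 12.6 to 162 CPM with a median of 56.4 CPM (log2 fold change -2.48 ± 0.17 SE, adjusted p = 3.24e-07). Elf3, a factor of epithelial cells, was at 0.0938 and 0.375 CPM against 1.64 to 48.2 CPM with a median of 27 CPM (log2 fold change -5.53 ± 0.41 SE, adjusted p = 7.68e-07), with lung nearest to spleen. Cldn3, a claudin, had 0 reads in both spleen libraries and up to 7.44 CPM elsewhere, so its TS repair was at least 71.7-fold lower than the mean of the others, with a floor of 3 reads over both spleen libraries. Pkp2, Krt18 and Cgn had log2 fold changes of -4.0 (adjusted p = 1.98e-07), -4.88 (adjusted p = 4.14e-05) and -4.41 (adjusted p = 2.77e-07). Krt8, a keratin of simple epithelia, overlapped with lung, at 0.657 and 0.779 CPM against 0.769 to 31.4 CPM with a median of 16.6 CPM.

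The lower genes of the largest change included a transporter, a kinase and a myosin. Pllp, which encodes plasmolipin, had 0.469 and 1.41 CPM against 30.9 to 104 CPM with a median of 71.8 CPM (log2 fold change -5.79 ± 0.28 SE, adjusted p = 2.48e-08). Dclk3, a doublecortin-like kinase, had 0.469 and 1.1 CPM against 11.3 to 143 CPM with a median of 72.8 CPM (log2 fold change -5.76 ± 0.29 SE, adjusted p = 3.21e-08). Slc47a1, a transporter that exports organic cations into urine and bile, had 1.13 and 0.895 CPM against 11 to 131 CPM with a median of 48.4 CPM (log2 fold change -5.41 ± 0.31 SE, adjusted p = 8.29e-08). Bdnf, a neurotrophin, was at 1.03 and 0.144 CPM against 9.5 to 34.8 CPM with a median of 22.6 CPM. Adra1a, an adrenergic receptor, was at 4.13 and 3.98 CPM against 39.8 to 273 CPM with a median of 63.5 CPM. Myo5b, a myosin of vesicle recycling, had the most reads of these, with 15 and 13.9 CPM against 61.4 to 858 CPM with a median of 335 CPM (log2 fold change -4.17 ± 0.12 SE, adjusted p = 7.74e-10), and Myh14, Ngef and Epha1 had log2 fold changes of -4.12 (adjusted p = 1.24e-08), -4.69 (adjusted p = 2.79e-08) and -4.67 (adjusted p = 2.77e-07). The 4 flavin monooxygenase genes that lie in a row on chromosome 1, Fmo4, Fmo1, Fmo2 and Fmo6 (chr1:162793188-162937515), were lower than each organ. Fmo2 had 0.657 and 0.548 CPM against 11.8 to 29.4 CPM with a median of 26.7 CPM (log2 fold change -5.26 ± 0.32 SE, adjusted p = 1.46e-07). Fmo1 had 7.97 and 9.35 CPM against 16.1 to 42.3 CPM with a median of 32.5 CPM (log2 fold change -1.74 ± 0.21 SE, adjusted p = 3.83e-05). Fmo6 had 0 reads in spleen, at least 22.3-fold lower than the mean of the other organs, and its call was lost when either spleen library was left out.

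The YAP and TEAD list, which holds the pathway's own regulators beside its targets, was lower in spleen. Of 18 members 10 were lower and 1 higher, 9 lower against each organ, with a median of -1.33, and the sum was 1203 and 1227 CPM in spleen against 1970 to 2580 CPM. Yap1, the coactivator that the Hippo kinases restrain, had 33.7 and 39.6 CPM against 105 to 199 CPM with a median of 183 CPM (log2 fold change -2.1 ± 0.11 SE, adjusted p = 3.97e-08). Its partner Wwtr1, which encodes TAZ, had 54.8 and 53.8 CPM against 177 to 242 CPM with a median of 206 CPM (log2 fold change -1.95 ± 0.09 SE, adjusted p = 2.48e-08). The DNA-binding partners Tead1 and Tead3 had log2 fold changes of -1.51 (adjusted p = 7.02e-08) and -1.91 (adjusted p = 4.35e-07). Among targets, Ccn1, a matrix protein, had 3.66 and 7.01 CPM against 15.5 to 42.2 CPM with a median of 18.2 CPM (log2 fold change -2.02 ± 0.27 SE, adjusted p = 8.92e-05). Amotl2, a feedback inhibitor, had 13.4 and 18.9 CPM against 42.6 to 107 CPM with a median of 63.2 CPM (log2 fold change -2.02 ± 0.17 SE, adjusted p = 1.97e-06). Dlc1, a regulator of small GTPases, had a log2 fold change of -1.33 (adjusted p = 8.07e-07). Axl, a receptor kinase that macrophages also use, was the member called higher, with 38.3 and 34 CPM against 7.32 to 39.96 CPM with a median of 17.9 CPM (log2 fold change 1.06 ± 0.17 SE, adjusted p = 5.13e-04), and lung overlapped with spleen there. The TEAD letters CATTCC stood in the promoter windows of 21.3% of lower genes, 15.1% of higher genes and 15.3% of all genes. They are in capitals, or their reverse complement is, in the 250 bases before the start of Ccn1 (chr3:145649986-145650235, minus strand) and Yap1 (chr9:8004597-8004846, minus strand), where they began 103 and 141 bases upstream.
Ccn1: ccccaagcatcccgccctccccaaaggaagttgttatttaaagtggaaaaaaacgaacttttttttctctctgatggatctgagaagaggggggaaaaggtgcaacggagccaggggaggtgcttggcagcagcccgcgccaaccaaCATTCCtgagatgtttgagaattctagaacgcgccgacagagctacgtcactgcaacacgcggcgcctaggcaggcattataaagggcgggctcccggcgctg
Yap1: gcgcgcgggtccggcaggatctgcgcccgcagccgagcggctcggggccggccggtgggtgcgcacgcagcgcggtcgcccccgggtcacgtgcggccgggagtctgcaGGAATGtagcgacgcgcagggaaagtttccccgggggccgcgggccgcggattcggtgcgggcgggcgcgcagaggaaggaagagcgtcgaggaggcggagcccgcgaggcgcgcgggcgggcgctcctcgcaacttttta

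Hepatocyte and kidney tubule markers were lower in part, and few of them were lower against each organ. Of 24 hepatocyte genes 11 were lower and 0 higher, but 2 against each organ, with a median of -2.51. Cps1, the entry enzyme of the urea cycle, had 0 and 0.0289 CPM in spleen, 62.9 and 57.4 CPM in liver and 0.0543 and 0.537 CPM in kidney, with 0.452 and 0.446 CPM in lung (log2 fold change -6.36 ± 0.82 SE, adjusted p = 7.20e-05). Cyp2e1, an alcohol-oxidising P450, had 0 and 0.0577 CPM against 0.493 to 12.9 CPM with a median of 3.05 CPM (log2 fold change -6.06 ± 0.81 SE, adjusted p = 9.96e-05). Apob, the apolipoprotein of liver-made particles, had 0.0938 and 0.375 CPM against 0.305 to 54.4 CPM with a median of 34.5 CPM (log2 fold change -4.93 ± 0.45 SE, adjusted p = 4.17e-06). Tat, tyrosine aminotransferase, had 0 spleen reads and was at least 114-fold lower than the mean of the other organs. Its call was lost without spleen replicate 2 and without lung replicate 2. Of 20 kidney tubule genes 8 were lower and 0 passed against each organ, with a median of -1.72. Lrp2, megalin of the proximal tubule, had 87.5 and 92.7 CPM in kidney, 3 and 1.15 CPM in spleen, 1.9 and 3.37 CPM in liver and 6.34 and 5.89 CPM in lung. Pax2 and Pax8, factors of the kidney lineage, had 192 and 154 CPM and 93.7 and 118 CPM in kidney, but 2.25 and 2.92 CPM and 0.938 and 1.7 CPM in spleen, near the levels of liver and lung. Slc22a6, an organic anion transporter, had 0 spleen reads and was at least 118-fold lower than the mean of the other organs, though not called against each. This call was lost without spleen replicate 2.

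Of 16 lung alveolar and airway genes, 1 was lower and 2 higher, with a median of -0.21, which are shares near those of all genes tested, 9.0% lower and 8.7% higher. The lower one was Slc34a2, a phosphate transporter, with 0 and 0.375 CPM against 2.14 to 36.2 CPM with a median of 5.73 CPM (log2 fold change -4.73 ± 0.61 SE, adjusted p = 7.00e-05). Napsa, an aspartic protease, was higher, with 16.3 and 16.1 CPM against 0.512 to 10.5 CPM with a median of 2.83 CPM. Lpcat1, an enzyme of surfactant lipid, was higher, with 195 and 210.0 CPM against 24.7 to 209.7 CPM with a median of 59.4 CPM. Lpcat1 was as high in lung, at 208 and 209.7 CPM, as in spleen. Sftpc, the surfactant protein of alveolar cells, had 0 spleen reads and 1.42 and 0.61 CPM in lung, and was not called.

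Genes of drug and fat metabolism were lower in part. Of 22 cytochrome P450 and conjugation enzyme genes, 12 were lower and 0 higher, 2 against each organ, with a median of -1.18. Cyp1a1, the P450 induced by aryl hydrocarbons, had 0.375 and 0.693 CPM against 1.52 to 13.3 CPM with a median of 5.84 CPM (log2 fold change -3.22 ± 0.49 SE, adjusted p = 2.89e-04), and Cyp1a2 had 0 spleen reads, 31 and 19.2 CPM in liver and 0 and 0.143 CPM in kidney, with 0.318 and 0.0939 CPM in lung. Of 24 fatty acid oxidation and PPAR target genes, 7 were lower and 0 higher, while the median of 0.23 was above 0. The lower ones included regulators, and not all of the 7 are named here. Ppara, the nuclear receptor that switches the pathway on, had 12.6 and 16.2 CPM against 40.2 to 88.5 CPM with a median of 75.7 CPM (log2 fold change -2.2 ± 0.17 SE, adjusted p = 8.69e-07). Ppargc1a, its coactivator, had 12.4 and 14.4 CPM against 9.74 to 140.1 CPM with a median of 96.2 CPM (log2 fold change -1.91 ± 0.14 SE, adjusted p = 6.26e-07), with lung as low as spleen. Pdk4, a kinase that spares glucose, had a log2 fold change of -1.64 (adjusted p = 8.65e-04). The enzymes Acadm and Cpt1a were not called. Acadm, which oxidises medium-chain fat, was at 54.6 and 53.6 CPM against 20.6 to 45.9 CPM with a median of 35.8 CPM (log2 fold change 0.73 ± 0.15 SE, adjusted p = 0.00215). Cpt1a, the gate of fat entry into mitochondria, was at 235 and 238 CPM against 103 to 247 CPM with a median of 212 CPM (log2 fold change 0.39 ± 0.09 SE, adjusted p = 0.00724). Their transcripts were lower, with log2 fold change -2.95, adjusted p = 1.02e-04 for Acadm and log2 fold change -1.27, adjusted p = 0.00364 for Cpt1a. In RNA-seq 23 of the 24 genes were lower.

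Genes of the damage response, the clock and glucocorticoid signalling had lower members and no higher ones. Over all genes tested 8.7% were higher and 9.0% lower, shares to hold beside the counts of these lists. Of 24 p53 target genes 6 were lower, 4 against each organ, with a median of -0.13. Cdkn1a, the p21 inhibitor of the cell cycle, had 22.1 and 23.6 CPM against 38.3 to 93.7 CPM with a median of 58.3 CPM (log2 fold change -1.42 ± 0.16 SE, adjusted p = 2.46e-05). Plk2, a kinase induced by damage, had 4.41 and 5.4 CPM against 10.3 to 24.8 CPM with a median of 14.7 CPM (log2 fold change -1.66 ± 0.25 SE, adjusted p = 2.99e-04). Perp, which also builds desmosomes, had 0 and 0.722 CPM against 1.99 to 47 CPM with a median of 22.2 CPM (log2 fold change -4.75 ± 0.54 SE, adjusted p = 2.51e-05). Of 19 circadian genes 4 were lower, 3 against each organ, with a median of -0.33. Ciart and Hlf had log2 fold changes of -1.71 (adjusted p = 5.90e-04) and -1.08 (adjusted p = 1.99e-05), and Npas2 was lower than the mean (log2 fold change -1.41 ± 0.27 SE, adjusted p = 0.00179) with lung at 75.7 and 39.1 CPM beside spleen at 47.9 and 40.03 CPM. The core clock genes Arntl and Per1 were not called. Arntl was at 329 and 329.6 CPM against 167 to 330.2 CPM with a median of 207 CPM. Per1 was at 132 and 123 CPM against 42.2 to 146 CPM with a median of 94.7 CPM. Of 15 glucocorticoid-induced genes 6 were lower, 3 against each organ, with a median of -0.97. Zbtb16, the PLZF factor, had 223 and 208 CPM against 410.3 to 626 CPM with a median of 507 CPM (log2 fold change -1.25 ± 0.09 SE, adjusted p = 7.97e-07). Errfi1, an inhibitor of the EGF receptor, had a log2 fold change of -1.06 (adjusted p = 4.87e-04). Fkbp5, a chaperone of the glucocorticoid receptor, was not called, with 254 and 254 CPM against 152 to 295 CPM with a median of 199 CPM.

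Repair of the repair genes themselves was not called different. None of 33 excision repair genes was called in either direction in TS repair, at a median of 0.08, with no overlap between spleen and the other libraries at 4 of them (20.3% of all genes tested had none), and the list summed to 2246 and 2283 CPM in spleen and 2057 to 2274 CPM elsewhere. Xpc, the global repair sensor, had 113 and 101 CPM against 85.9 to 99.9 CPM with a median of 93.9 CPM (log2 fold change 0.19 ± 0.10 SE, adjusted p = 0.189). Ercc6, which encodes CSB, had 151 and 146 CPM against 115 to 158 CPM with a median of 133 CPM (log2 fold change 0.15 ± 0.08 SE, adjusted p = 0.21). In RNA-seq 8 of the 33 were higher, a share near the 25.0% of all genes tested there, among them Pold1, a DNA polymerase subunit, and Lig1, a DNA ligase, with log2 fold change 2.73, adjusted p = 6.63e-06 for Pold1 and log2 fold change 2.78, adjusted p = 1.33e-05 for Lig1, whose TS repair was at log2 fold changes of 0.64 (adjusted p = 0.00343) and 0.36 (adjusted p = 0.0978). None of 41 ribosomal protein genes and none of 24 housekeeping genes was called in TS repair, at medians of 0.03 and 0.01, though 26 of the 41 ribosomal protein genes were higher in RNA-seq at a median of 1.11.

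Dividing cell genes were higher in part. Of 35 mitosis and DNA replication genes, 14 were higher and 1 lower in TS repair, 4 higher against each organ, with a median of 0.54, while 34 were higher in RNA-seq with a median of 3.46. Mki67, a marker of dividing cells, had 8.35 and 9.93 CPM against 0.82 to 4.38 CPM with a median of 1.56 CPM (log2 fold change 2.41 ± 0.46 SE, adjusted p = 0.00144). Bub1b, a spindle checkpoint kinase, had 27.5 and 29.8 CPM against 5.05 to 14.7 CPM with a median of 6.97 CPM. E2f2, a factor of the cell cycle, had 56.5 and 57.3 CPM against 9.63 to 33 CPM with a median of 16.9 CPM. Top2a, a topoisomerase, was called against the mean alone, with 4.79 and 8.83 CPM against 0 to 2.37 CPM with a median of 1.2 CPM. Cenpf, a centromere protein, was too, with 6.94 and 8.34 CPM against 0 to 1.08 CPM with a median of 0.902 CPM. Ccne2, a cyclin of replication start, was the lower member, with 1.78 and 4.5 CPM against 6.92 to 13.3 CPM with a median of 9.97 CPM (log2 fold change -1.63 ± 0.44 SE, adjusted p = 0.0134). Of 20 endothelial genes 1 was higher and 3 lower, with a median of -0.27. Over all genes tested 8.7% were higher and 9.0% lower. Those shares are to be held beside this list and the fibroblast and adipocyte lists below. Pecam1, which encodes CD31, was higher at 177 and 212 CPM against 24.7 to 144 CPM with a median of 36.4 CPM (log2 fold change 1.95 ± 0.11 SE, adjusted p = 1.06e-07). Emcn, endomucin, was lower at 4.13 and 3.67 CPM against 3.97 to 46 CPM with a median of 15.5 CPM (log2 fold change -1.94 ± 0.24 SE, adjusted p = 5.37e-05). Of 16 fibroblast and smooth muscle genes 1 was higher, Fbn1, fibrillin, with 121 and 107 CPM against 22.8 to 138 CPM with a median of 37.3 CPM and lung at 138 and 119.7 CPM, and of 11 adipocyte genes tested 2 were lower and 0 higher.

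Most genes that differed in repair also differed in transcript level. In RNA-seq of the cisplatin-treated organs, 4478 of 17895 genes tested (25.0%) were higher in spleen than the mean of the others and 3603 (20.1%) were lower. With library totals in place of TMM scaling the split was 6035 higher and 2555 lower, and the median over all genes moved from 0.06 to 0.48. Of 678 genes higher in TS repair against each organ and tested in both assays, 617 were higher in RNA-seq (91.0% of the repair list and 15.7% of the 3938 RNA-seq genes), and 3 were lower. Of 609 genes lower in repair against each organ, 520 were lower in RNA-seq (85.4% of the repair list and 14.6% of the 3567), and 4 were higher. Over 16974 genes the log2 fold changes of TS repair and RNA-seq had a Pearson's r of 0.692 and a Spearman coefficient of 0.593, given as a description across genes, which are not independent and share the organs compared. The median RNA-seq change was 3.6 among genes higher in repair against each organ and -2.65 among those lower.

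**Figure D3:**
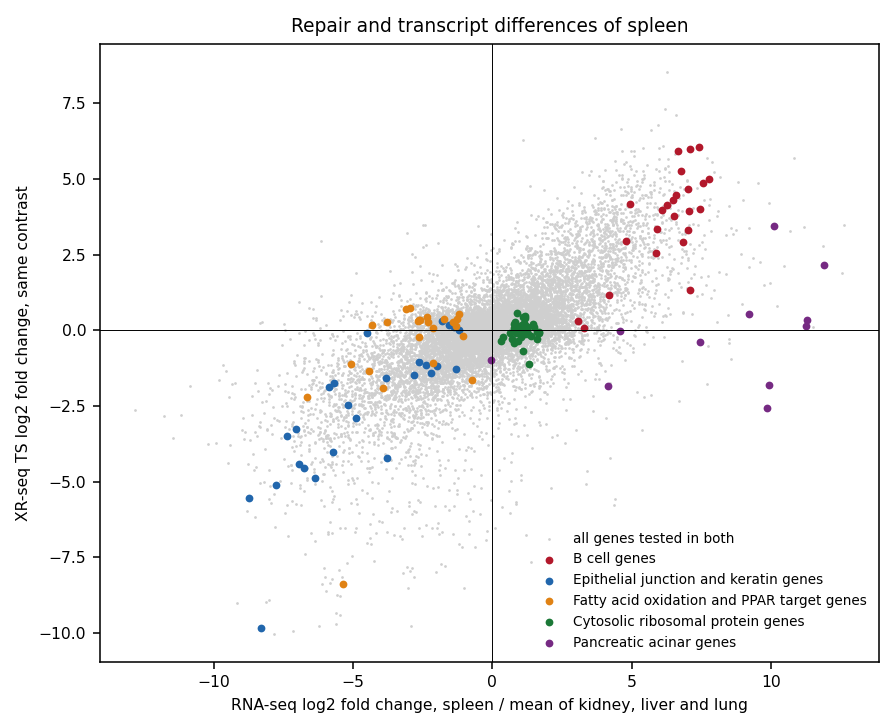
Log2 fold change of spleen against the mean of kidney, liver and lung in RNA-seq (horizontal axis) and in TS excision reads (vertical axis), 1 point per gene tested in both. Coloured points are members of 5 lists: B cell genes lie at the upper right, most epithelial genes at the lower left, most fatty acid oxidation genes at the left near 0 repair change, ribosomal protein genes near the centre, and pancreatic acinar genes mostly far to the right on both sides of 0 repair change (median -0.03).

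Among the 7 genes that went opposite ways, Kcnj5, a potassium channel, Ccne2 and Hmox1 were lower in repair and higher in transcripts. Kcnj5 had 0 and 0.231 CPM against 0.879 to 9.34 CPM with a median of 1.23 CPM in TS repair (log2 fold change -3.73 ± 0.91 SE, adjusted p = 0.00771). In RNA-seq it had 3.1 and 4 CPM against 0 to 2.07 CPM with a median of 1.24 CPM. Coq8a, a mitochondrial kinase of coenzyme Q synthesis, and Fars2, a mitochondrial tRNA synthetase, were higher in repair and lower in transcripts. Fars2 had 539.9 and 490.4 CPM against 143 to 356 CPM with a median of 205 CPM (log2 fold change 1.25 ± 0.08 SE, adjusted p = 2.47e-07), and its RNA-seq change was log2 fold change -1.45, adjusted p = 0.00479. Coq8a had 176 and 145 CPM against 57.5 to 91.5 CPM with a median of 73 CPM (log2 fold change 1.14 ± 0.11 SE, adjusted p = 4.28e-06), with log2 fold change -1.65, adjusted p = 0.00274 in RNA-seq. Fars2 and Coq8a each overlap 1 or more genes on the opposite strand, whose NTS reads fall on their TS.

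Pancreatic acinar transcripts were present in the spleen RNA-seq. Summed over the 19 listed genes, of which 11 were tested for repair, they were 3011 and 2343 CPM in spleen and 13.0 to 101 CPM elsewhere. Of the 11 genes, 10 were higher in RNA-seq with a median of 9.87. In TS repair the 19 genes summed to 11.5 and 13.4 CPM in spleen and 9.08 to 34.6 CPM elsewhere. None of the 11 was called, and their median was -0.03. Cpa1, a carboxypeptidase of pancreatic juice, had 257 and 189.6 CPM against 0 to 0.545 CPM with a median of 0.0716 CPM in RNA-seq. In TS repair it had 1.41 and 0.26 CPM against 0 to 1.14 CPM with a median of 0.183 CPM. Hepatocyte transcripts summed to 675 and 71.6 CPM in the 2 spleen libraries, 240.4 and 126 CPM in lung and 4427 and 5769 CPM in kidney. The part of such transcripts from neighbouring tissue in the RNA-seq comparison was not tested.

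On the NTS, from which global repair is read, fewer genes were called different than on the TS. The NTS also held fewer reads, 1219422 and 3999677 in the spleen libraries beside 9439253 and 30650206 on the TS. The part of read depth in the lower number of calls was not tested. Of 19637 genes tested, 682 (3.47%) were higher and 1287 (6.55%) lower in spleen, and the median over all genes was -0.30. TMM scaling of the NTS reads brought the median to -0.06 and the split to 933 higher and 829 lower. Leaving out kidney replicate 2 gave 1851 and 1957 calls, leaving out spleen replicate 1 gave 321 and 626, without liver replicate 2 the lower calls were 851, and without spleen replicate 2 the higher calls were 422. Of 688 genes higher in TS repair against each organ, 150 were higher on the NTS (21.8%), and 239 of 616 lower genes were lower on the NTS (38.8%). The median NTS change was 0.78 among the former and -1.38 among the latter, against -0.31 over all genes tested on both strands.

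Ikzf1 was among the clearest, with 22.1 and 24.2 CPM against 1.16 to 2.31 CPM with a median of 1.85 CPM on the NTS (log2 fold change 3.7, adjusted p = 2.74e-05). Dock2 had 30.5 and 18.9 CPM against 3.24 to 6.66 CPM with a median of 3.86 CPM (log2 fold change 2.49, adjusted p = 7.55e-05), and it overlaps genes on the opposite strand, whose TS reads fall on its NTS. Such overlapping genes were not left out of the counts. NTS reads of these genes were few beside the TS levels given above. The largest NTS rises among genes called on both strands were in Lta, which encodes lymphotoxin alpha, Ms4a4a and Slamf6. Slamf6 had 6.38 and 3.09 CPM against 0 to 0.352 CPM with a median of 0.149 CPM (log2 fold change 5.22, adjusted p = 0.00662). Lta had 2.25 and 1.3 CPM against 0 to 0.322 CPM with a median of 0 CPM (log2 fold change 5.97, adjusted p = 0.0348). On the lower side of the NTS, Zbtb16 had 9.29 and 10.9 CPM against 33.3 to 119 CPM with a median of 53.2 CPM (log2 fold change -2.58, adjusted p = 7.31e-06). Prkaa2, the catalytic subunit of an energy-sensing kinase, had 0.0938 and 0.491 CPM against 2.16 to 10.9 CPM with a median of 5.59 CPM (log2 fold change -3.81, adjusted p = 0.00212). The largest NTS falls were in genes with almost no spleen reads, such as Tinag, a protein of tubular basement membranes, with 0 and 0 CPM against 0.0759 to 3.53 CPM with a median of 0.308 CPM.

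The share of damage reads on the TS, from adducts that remained, differed at few genes. Damage reads were scaled to each library's total, so they do not give the amount of adducts in an organ. By immuno-slot blot and by inference from Damage-seq, the study placed spleen lowest of the organs in adducts. Damage-seq called 49 of 19797 genes higher (0.248%) and 36 lower (0.182%) on the TS, and 3 (0.0148%) and 2 (0.00989%) of 20220 on the NTS, where 1876 had an unadjusted p under 0.05. Without spleen replicate 1 the TS calls were 20 higher and 13 lower, without spleen replicate 2 they were 17 and 8, and without lung replicate 1 the lower calls were 64. The spleen Damage-seq libraries were the shallowest, with 1571167 and 2211070 reads on genes against up to 6441367. Among 691 genes higher in TS repair against each organ and tested for damage, 12 were called lower in TS damage reads and 0 higher. Among 598 genes lower in repair, 7 were called higher in TS damage reads and 0 lower. The 12 were C920009B18Rik, Irf4, Unc13d, Rassf2, AB124611, Rgs14, Slc43a2, Traf1, Fgr, Itga4, Il21r and Trpv2, and the 7 were Fnbp1l, Eva1a, Ephb4, Epha1, Syde2, Fmo1 and Prkaa2.

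Prkaa2 had 21.5 and 14.6 CPM against 65.7 to 103 CPM with a median of 88.3 CPM in TS repair (log2 fold change -2.25 ± 0.16 SE, adjusted p = 5.98e-07). In Damage-seq TS reads it had 52.8 and 36.6 CPM against 10.2 to 23.8 CPM with a median of 18.8 CPM (log2 fold change 1.41, adjusted p = 1.99e-07). The order of libraries was thus reversed between the assays, with no overlap between spleen and the others in either. Itga4, an integrin of lymphocytes, had 16.6 and 10.4 CPM against 20.03 to 32 CPM with a median of 29.6 CPM damage reads (log2 fold change -1.1, adjusted p = 0.00245). Its excision reads were 67.9 and 71 CPM against 2.34 to 16.1 CPM with a median of 4.03 CPM. Rassf2, a Ras-binding protein, had 7.64 and 7.69 CPM against 14.4 to 25.8 CPM with a median of 21.8 CPM damage reads (log2 fold change -1.47, adjusted p = 9.57e-04). Its excision reads were 85.2 and 93.1 CPM against 4.53 to 27.6 CPM with a median of 24.3 CPM. Irf4, a factor of plasma cells and activated T cells, had 2.55 and 3.62 CPM against 7.38 to 13.4 CPM with a median of 9.43 CPM damage reads (log2 fold change -1.63, adjusted p = 0.0177). Eva1a and Epha1 had damage log2 fold changes of 1.04 (adjusted p = 0.00142) and 1.08 (adjusted p = 0.0368) on the TS.

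Over whole classes the shift was small and opposite to repair. The median TS damage change was -0.15 among genes higher in repair against each organ, with 71.35% of them below 0, and 0.28 among genes lower in repair, with 17.22% below 0, beside 0.03 and 46.24% over all genes tested. On the NTS the medians were 0.03, -0.06 and -0.07. Over 17987 genes, TS repair and TS damage changes had a Pearson's r of -0.143 and a Spearman coefficient of -0.180, as a description across genes, which are not independent replicates.

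**Figure D4:**
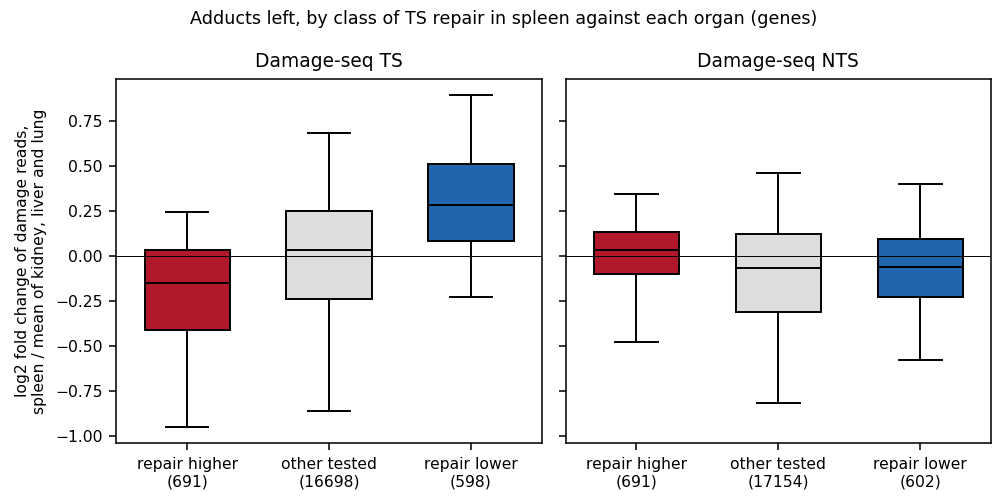
Log2 fold change of Damage-seq reads between spleen and the mean of kidney, liver and lung, on the TS (left) and the NTS (right), for genes whose TS repair was higher than each organ, for other tested genes, and for genes lower than each organ (numbers in brackets). Boxes span the quartiles with the median as a line and whiskers reach the outermost values after the tails of 5% on each side; on the TS the medians step from -0.15 through 0.03 to 0.28, and on the NTS they are 0.03, -0.07 and -0.06.

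The median length was 50490 bp among genes higher than each organ and 34530 bp among genes lower, against 21280 bp over all genes tested, and 33.1%, 23.8% and 12.8% were over 100 kb. The part of gene length in the counts of calls was not tested. The density of GG dinucleotides on the TS was alike, at medians of 61.4, 62.0 and 60.0 per kb. Of the 695 higher genes 187, and of the 617 lower genes 160, overlapped another listed gene on the opposite strand, where TS and NTS reads of the 2 genes cannot be separated.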

How the data were processed

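XR-seq, Damage-seq and RNA-seq were measured in kidney, liver, lung and spleen, and the raw counts per gene that the authors deposited were used. Per the labels and the study's methods, reads were trimmed with cutadapt, aligned with BWA to mm10, and freed of duplicates with Picard. Per the same sources, RNA-seq was aligned with STAR and counted with featureCounts. Gene positions, types and overlaps were taken here from GENCODE M21. XR-seq and Damage-seq counts are separate for each strand, and 1 line without a gene name was dropped per file. Versions of these tools are not given in the sources used here. The study corrected for batch, but the batch of a library is not given in the sources used here, so no batch term was fitted.

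Genes passing edgeR's filterByExpr were tested with edgeR 4.0.16 (R 4.3.3) by a quasi-likelihood fit with 1 term per organ. Library size was the total of TS and NTS reads, without further factors, and TMM factors were added for RNA-seq. Spleen was set against the mean of the other organs and against each. A call needed a Benjamini-Hochberg adjusted p under 0.05 and at least a 2-fold change, and against each organ also an adjusted p under 0.05 in the same direction in all 3 tests. All adjusted p-values in the text come from this test over all genes of a table. Fold changes of genes with few reads depend on edgeR's prior count. With 2 libraries per organ, p-values measure the spread between these libraries. A gene with 0 spleen reads was set to a floor of 3 reads over both libraries, which covers counting error only. Promoters were RefSeq windows of GRCm38.p6. List sums took every listed gene with counts, tested or not.

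The comparison, the gene lists and the genes named were chosen with earlier results of these data known. The naming rule took 6 kinds of genes: per direction the 12 protein-coding genes with the largest change against each organ at 10 CPM or more; the 6 with the most spleen reads per GG; up to 5 per direction called oppositely in RNA-seq; up to 5 per direction called on both strands; per list the 3 largest and 2 smallest changes at 5 CPM or more; and members against the majority of their list. It gave 98 of the 186 genes with values in the text, and the others were chosen after their values were seen. Some genes are not reported here. The scripts were tested on simulated data. Alternatives were TMM factors, DESeq2 1.42.0, other filters, thinning, 2 groups, a replicate block and each library left out.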

Additional observations from a re-analysis of the deposited data

How the results depend on the processing

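The direction of every gene with values in the text was kept under every alternative run in which it was tested. Of the 186 genes, 23 rose above an adjusted p of 0.05 without 1 library, namely 13 without spleen replicate 1 (Ccne2, Cd3e, Cd4, Cpt1a, Fmo6, Gata1, H2-Aa, Lcn2, Lta, Lyn, Ms4a4a, Per1 and Ralgps2), 20 without spleen replicate 2 (of these also Cenpf, Csf3r, Cyp1a2, Gfi1b, Nkx2-5, Pold1, Slc22a6, Spic, Tat and Top2a), and at most 5 without any other library. The fit with 1 group for the other organs left 89 of the 186 genes on their side of the threshold. Treating kidney, liver and lung as 1 group gave 352 higher and 220 lower in TS repair, 56 and 13 on the NTS, 1 and 0 in Damage-seq TS, 0 and 0 in Damage-seq NTS and 1708 and 485 in RNA-seq, with 225 and 72 shared between TS repair and RNA-seq. In that fit the differences among the 3 organs are part of the spread. DESeq2 gave 1180 genes higher on the NTS, 14 and 11 in Damage-seq TS and 1 and 0 in Damage-seq NTS. TMM factors gave 829 genes lower on the NTS and 1 in Damage-seq NTS, the study's filter left 448 genes higher than each organ and 1 higher in Damage-seq NTS, and thinning left 1 lower there. That filter drops genes of 100 kb or more, and 230 of the 695 genes higher than each organ were over 100 kb. Where the text gives no reason, the cause was not tested. Leaving out 1 library at a time gave 1327 to 2379 higher and 1437 to 2046 lower genes in TS repair, 492 to 933 and 509 to 720 against each organ, 321 to 1851 and 626 to 1957 on the NTS, 17 to 73 and 8 to 64 in Damage-seq TS, 0 to 6 and 0 to 5 in Damage-seq NTS, 3784 to 4897 and 2887 to 3629 in RNA-seq, and 998 to 1635 and 1004 to 1291 shared. The difference in TS share stayed between 1.47 and 2.71 points, with exact p up to 0.714. Control RNA-seq libraries, from mice given saline, were also fitted. In that fit the lung pair and the spleen pair were each summed to 1 library, so no count of calls is given. They were summed because an index of spread between replicates, relative to counting error, was 2.75 and 2.99, under a limit of 3. The other RNA-seq pairs had 39.3 to 349. Whether the summed pairs came from separate animals was not tested. Correlations between the deviations of libraries of the same replicate number were -0.023 to 0.044 in TS repair, -0.03 to 0.024 on the NTS, -0.187 to 0.225 in Damage-seq and -0.237 to 0.51 in RNA-seq, the highest between lung and spleen. In no assay did every pair of organs pass 0.1, so the numbers were not taken to pair the samples. Whether some organs alone, such as lung and spleen in RNA-seq, shared animals or a batch was not tested by that rule. A replicate block gave 1681 and 1767 calls in TS repair and 4370 and 3454 in RNA-seq, and moved no count by over 1.5 times. Thinning every library to the smallest gave 1764 and 1771 calls in TS repair and 44 and 30 in Damage-seq TS.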
